A study of Mus musculus with 4 samples.

Results

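Under each of the 4 sample names stand 2 deposited sets of values, a scanner file read from an array and a column of the authors' value table. The comparison described here sets the scanner files against the table to show which cell types each source appeared to hold, and it makes no comparison of genotype or treatment. All 4 of 4 samples entered, giving 4 scanner arrays and 4 table columns, 8 columns in all. For each probe the measure was the mean log2 level over the 4 scanner arrays minus the mean log2 level over the 4 table columns. A level is log2 of the brightness relative to the 75th percentile of its own array or column, so 0 is the brightness that 75% of probes lie below, and a positive difference is a higher level in the scanner files.

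The labels name whole lung of mice that were Pla2g3+/+ (WT-labelled) or Pla2g3-/- (KO-labelled), each as a control and as an antigen-challenged group. Pla2g3 encodes a secreted phospholipase A2, and the antigen was ovalbumin: 10 µg with 1.3 mg of alum was injected at days 0 and 14, a 1% aerosol was inhaled for 30 min daily at days 26, 27 and 28, and tissue was taken 48 h after the last aerosol. Each group had 1 array, hybridised with Cy3-labelled RNA pooled from 4 samples, of which 200 ng was labelled. The strain, age and sex of the mice, the deleted part of Pla2g3 and what the control mice received are not given in the sources used here. The 4 columns of a source therefore come from 4 different groups, and a SD over them (n = 4) mixes any effect of genotype and challenge with other differences between the pools. The sources were normalized separately, so differences between them are described with their spread and carry no p-value.

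The lung's gas-exchange surface is lined by alveolar type I cells, which are thin and cover most of its area, and alveolar type II cells, which secrete surfactant, and it is wrapped in a dense capillary bed. The conducting airways that lead to it are lined by ciliated, secretory and, in the large airways of the mouse, basal cells, with glands and cartilage near the top of the tree. Sftpc (surfactant protein C, alveolar type II cells), Ager (a receptor of alveolar type I cells), Foxj1 (the regulator of motile cilia) and the keratins Krt5 and Krt15 (basal cells of layered epithelium) mark these compartments.

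The arrays carry 60-base probes, and the following ones are shown because they measure the marker genes of the alveolus (Sftpc and Ager) and of basal cells (Krt5 and Krt15) or, for Kdr, because 2 probes of 1 gene disagreed. Sequences are those given in the scanner files, written 5′ to 3′ and all in lower case because no part of a probe is singled out. The Sftpc probe starts at position 593 of its transcript and the first 27 of its 60 bases are shown, and the Ager probe starts at position 436; the files give no genome position for either. The Krt5 probe shown is the dimmer of 2, not the one that represents the gene in the values, and starts at position 677 (chr15:101542056-101542115, minus strand, mm9), the Krt15 probe at position 1402 (chr11:99993331-99993390, minus strand, mm9) and the Kdr probe at position 4291 (chr5:76330395-76330454, minus strand, mm9). No annotation of that build was used here, so exon and UTR are not assigned.
Sftpc: ggagagctaccactctactatatctag
Ager: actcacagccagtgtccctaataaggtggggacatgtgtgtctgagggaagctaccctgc
Krt5: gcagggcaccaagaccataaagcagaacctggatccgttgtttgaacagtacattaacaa
Krt15: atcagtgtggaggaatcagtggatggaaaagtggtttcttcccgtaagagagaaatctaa
Kdr: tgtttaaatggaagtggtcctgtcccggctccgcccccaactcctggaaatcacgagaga

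The 2 sources were alike in quality and unlike in content. Spots well above background made up 79.2% to 81.9% in the scanner files and 79.8% to 82.1% in the table, and the log2 SD of repeated spots of a probe was 0.062 to 0.064 and 0.052 to 0.055. Over all 39410 probes used, levels correlated at 0.986 to 0.992 within the scanner files, at 0.989 to 0.994 within the table and at 0.915 to 0.923 between the sources. Deviations from each source's own mean were taken over the 28610 probes above background in all 8 columns. They correlated at -0.025 to 0.205 between columns of the same sample name and at -0.148 to 0.091 between columns of different names, so the ranges overlap. Whether an array and a column of one name came from the same RNA was not tested. The difference between sources did not follow the place of a probe on the slide (correlation -0.002 with row and 0.001 with column) and followed its GC content weakly (0.112).

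Control RNAs spiked into every labelling gave a scale that does not depend on the tissue. Of the 10 spike-in probes, each with 32 spots, 6 with scanner levels from -7.46 to 3.39 differed by -0.19 to -0.05 between the sources. The brightest, E1A_r60_1, had a mean level of 7.39 on the scanner arrays against 6.54 in the table columns, and the next in brightness differed by 0.56 and 0.20. The 2 dimmest did not behave alike: E1A_r60_3 differed by 0.86, and E1A_r60_a104, at a similar level, by -0.05. The table was thus lower than the scanner files for the brightest spike-ins and near them in the middle of the range. Negative control spots were lower in the table too, with medians of -9.89 to -9.56 on the scanner arrays against -10.75 to -10.36 in the table columns. All genes followed this shape in part. Their median difference was 1.39 for genes with a mean level under -8, 1.04 between -8 and -6, and 0.60 between -6 and -4. It was 0.12 between -4 and -2, 0.10 between -2 and 0, 0.21 between 0 and 2, 0.41 between 2 and 4, and 0.75 above 4. Over all 27509 genes above background in at least 1 of the 8 columns it was 0.42. The dim spike-ins were divided on this offset of dim genes. Between -8 and -4 E1A_r60_a104 and E1A_r60_a107 differed by -0.05 and -0.08 and did not show it, while E1A_r60_3 differed by 0.86. Small positive differences of very dim or very bright genes lie within the offset of all genes.

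**Figure D1:**
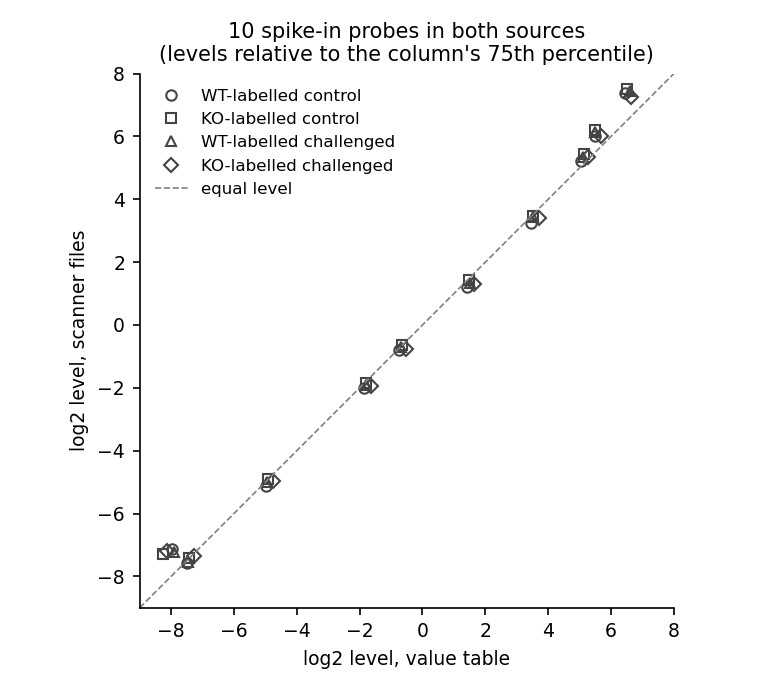
Median log2 level over the spots of each of 10 spike-in probes in the value table (horizontal axis) and the scanner files (vertical axis), 1 symbol per sample name, with the line of equal level. Of the 10 probes 6 lie within 0.19 of the line on average, the 3 brightest lie 0.20 to 0.85 above it, and E1A_r60_3, near the dim end, lies 0.86 above it.

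A gene was counted as different where its means lay at least 4-fold (2 on the log2 scale) apart and the ranges over the 4 arrays and the 4 columns did not overlap, with values at background raised to the floor of their column. Of all 27509 genes, 2054 (7.47%) were counted as lower in the scanner files and 2218 (8.06%) as higher. The split moved with the scaling: it was 2301 lower and 1613 higher after quantile normalization of all 8 columns, and 1319 lower and 7900 higher with another background correction (normexp) of the scanner files. That correction adds an offset of 50 to every scanner intensity and leaves the table as it is, so dim scanner levels rise. Ranges failed to overlap, whatever the size of the difference, for 6040 lower and 14405 higher genes, so a lack of overlap by itself is common here. A second probe of the same gene had the same sign for 446 of 505 lower genes (88.3%) and 364 of 392 higher genes (92.9%) that have one. Just inside the threshold lay Cd68 (-2.0003) and Sh3yl1 (2.0015), and just outside it Mpdz (-1.9987).

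The 5 marker genes divided the sources: the alveolar markers were higher in the table, and the ciliated and basal cell markers in the scanner files. In the order WT-labelled control, KO-labelled control, WT-labelled challenged and KO-labelled challenged, Sftpc had log2 levels of -1.33, -0.71, -0.66 and -0.26 on the scanner arrays against 6.92, 6.96, 7.04 and 7.02 in the table columns. Every scanner array was thus far below every table column, with a mean difference of -7.73 (212-fold, SD 0.44 and 0.06). Ager had -4.84, -5.17, -5.34 and -5.01 on the scanner arrays against 3.63, 3.73, 3.60 and 3.67 in the table columns, a mean difference of -8.75 (430-fold, SD 0.21 and 0.06). In a bulk RNA, fewer cells of a type and less RNA per cell cannot be told apart.

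The ciliated and basal cell markers lay the other way round. Krt5 had 5.65, 5.53, 5.68 and 5.43 on the scanner arrays against -4.002, -4.24, -3.82 and -4.15 in the table columns by its brighter probe, a mean difference of 9.62 (789-fold, SD 0.12 and 0.18). Its other probe, printed above, read 0.52, 0.46, 0.75 and 0.30 in the scanner files and was at background in all 4 columns. Krt15 had 6.27, 6.44, 6.28 and 5.93 on the scanner arrays against -3.90, -3.96, -3.90 and -3.98 in the table columns, a mean difference of 10.16 (1148-fold, SD 0.22 and 0.04). Foxj1 was well measured in both, with 3.50, 3.12, 3.55 and 3.47 on the scanner arrays against 1.08, 0.87, 1.23 and 1.26 in the table columns, a mean difference of 2.30 (4.93-fold). For each of the 5 genes the 4 arrays of a source lay close together whatever their label, and no array of a source reached a column of the other.

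**Figure D2:**
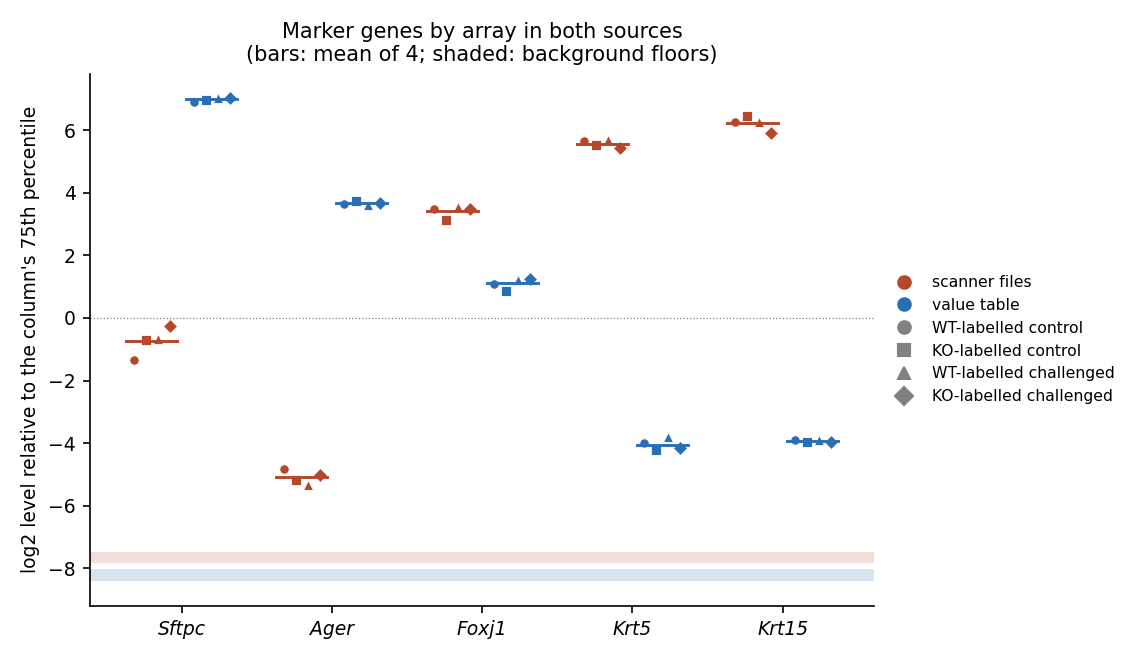
Log2 level relative to the 75th percentile of the array or column (vertical axis) of 5 marker genes, with scanner files in red, the value table in blue, a symbol per sample name, bars for the mean of 4 and shading for the background floors. Sftpc and Ager lie higher in all 4 table columns, and Foxj1, Krt5 and Krt15 in all 4 scanner arrays.

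Genes of the alveolar epithelium were mostly lower in the scanner files, and several of its best known products were not. Of 15 alveolar type II genes 11 were counted as lower and none as higher, with a median difference of -3.58, and the mean level of the list was 0.58 to 0.97 over the scanner arrays against 4.26 to 4.31 over the table columns. Hc, complement component 5, read -2.83, -3.02, -2.94 and -2.93 on the scanner arrays against 5.14, 5.17, 5.23 and 5.31 in the table columns, the lowest difference of the list (-8.14). Cxcl15, a chemokine of lung epithelium, differed by -6.24, Napsa, a protease that processes surfactant protein B, by -5.51, and Slc34a2, a phosphate transporter, by -5.45. Sftpb, the surfactant protein needed for spreading, was closer (-3.58), and its scanner levels spread from 0.58 to 2.56. Against the list's direction, Lyz1 (lysozyme) differed by 0.93 and Sftpd (surfactant protein D) by 0.63. Sftpd stood at 6.23, 6.48, 6.50 and 6.54 on the scanner arrays against 5.70, 5.77, 5.82 and 5.97 in the table columns, so it was among the bright genes of both. Sftpa1 (-1.15) and the lipid transporter Abca3 (-0.29) did not pass the rule.

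Alveolar type I genes gave the same direction. Of 15 genes 10 were counted as lower and none as higher, with a median of -3.39 (-2.24 over the 12 above background in all 8 columns). Akap5, a kinase anchoring protein, had the lowest difference of all genes measured in all 8 columns, with -6.43, -6.63, -6.84 and -6.42 on the scanner arrays against 4.01, 4.01, 3.76 and 3.97 in the table columns (-10.52, 1467-fold). Cldn18, a tight junction protein, was above background on 1 scanner array and in all 4 columns, and was at least 145-fold lower on the scanner arrays; for Rtkn2, on 1 array as well, the bound was 111-fold. Hopx, a cofactor made in other epithelia too, differed by -2.21. The water channel Aqp5 (1.27) and Pdpn (0.87), both also made outside the alveolus, went against the list. The scanner files, labelled lung, thus held Sftpc and Ager far below their levels in the table. Cldn18 and Rtkn2 were at background on 3 of 4 scanner arrays, while Sftpd and Aqp5 were bright in the scanner files.

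Secretory and ciliated genes of the conducting airway were present in both sources, and 14 of 20 ciliated genes but only 3 of 12 club cell genes passed the rule, all as higher in the scanner files. Scgb1a1, the main secretory protein of club cells, read 7.84, 7.89, 7.88 and 7.67 on the scanner arrays against 6.76, 6.81, 6.77 and 6.84 in the table columns, near the top of the range in both, where the spike-ins also differed by 0.85. The club cell median was 1.28, against 0.75 for all genes at the members' levels and 0.79 for the list itself after quantile normalization, and no member lay below 0. The 3 were Scgb3a2 (4.67), Pigr (2.29), the receptor that carries antibodies across epithelium, and Scgb3a1 (3.12). Scgb3a2 stood at 4.32, 4.37, 4.38 and 4.29 on the scanner arrays against -0.07, 0.02, -0.43 and -0.83 in the table columns. Hp (0.41) and Cckar (0.51) were the lowest of the list.

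The ciliated list was nearly uniform. Of 20 genes 14 were counted as higher and none as lower, and the median was 2.18. Apart from Mcidas the differences ran from 1.04 for Tppp3 to 2.44 for Tekt4 (both proteins of the microtubule apparatus). Dynlrb2, a dynein light chain, was the brightest in the scanner files (5.57 ± 0.04 SD, against 3.41 ± 0.14 in the table). Mcidas, an early regulator of multiciliated cells, differed by -0.06. The ratio of ciliated to endothelial genes, which needs no scaling between the sources, differed by 8.41 on the log2 scale between the list medians, and that of basal to alveolar type I genes by 7.76.

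Basal cell genes had the highest median of the 58 lists. Of 12 genes 9 were counted as higher and none as lower, and the median was 4.37. Krt17 differed by 8.99, the glycerol and water channel Aqp3 by 7.63, Dapl1 by 5.08 and the nerve growth factor receptor Ngfr by 4.90. Ngfr was even over the scanner arrays (1.65 ± 0.08 SD) and spread more over the table columns (-3.25 ± 0.36). Itgb4 (3.42) and Col17a1 (3.45), parts of the hemidesmosome that anchors basal cells, were both higher, and Lamb3, which binds them, differed by 0.50. Snai2 (-0.17) and Trp63 (-0.01) went against the list.

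The Trp63 value depended on the probe. Trp63 encodes the master regulator of basal cells and has 4 probes. The brightest, which represents the gene, starts at position 1801 of its transcript and read 1.68, 1.55, 1.36 and 1.01 on the scanner arrays against 1.62, 1.34, 1.55 and 1.15 in the table columns. The probe at position 4526 read 2.06, 1.82, 1.86 and 1.95 against -5.46, -5.23, -5.49 and -5.14, and the probes at positions 1723 and 2411 differed by 5.66 and 5.51, the latter at background in all 4 columns. Thus 3 of the 4 probes placed Trp63 with Krt5 and 1 did not, and the cause was not tested.

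Genes of layered squamous epithelium and of glands followed the basal genes. Of 21 squamous genes 10 were counted as higher and none as lower, with a median of 2.52. Many of these genes were measured in a single source: with background values at the floor the median was 1.91, and over the 11 genes above background in all 8 columns it was 1.56. Krt13 had 1.95, 1.88, 1.93 and 1.62 on the scanner arrays against -3.44, -3.51, -3.66 and -3.66 in the table columns. Krt4, its partner keratin, was at least 256-fold higher on the scanner arrays, and Pkp1, a desmosome protein, was above background on 4 arrays and in no column and at least 1032-fold higher. Products of the late, cornified layers were dim or not above background: Ivl was above it on no scanner array and in 2 columns, Krtdap on 1 array and in no column, and Dsg1a on no array and in 1 column. Tgm1, which cross-links the cornified layer, differed by 0.72. Sbsn (-0.15), Dsg1a (-0.10) and Cnfn (-1.20) lay below 0.

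Of 13 goblet cell genes 7 were counted as higher and none as lower (median 2.93), and of 11 gland genes 6 were higher and 1 lower (median 2.61, and 4.28 over the 7 above background in all 8 columns). Agr2, a chaperone of mucin, differed by 5.35, the transcription factor Foxa3 by 4.0004 and Bpifb1 by 3.64. Muc5b read 5.98, 6.20, 6.29 and 6.70 on the scanner arrays against 2.42, 2.71, 4.08 and 4.22 in the table columns. Muc5ac had nearly equal means (-0.03): it read -2.27, -2.48, -1.42 and -1.33 in the scanner files, and -3.78, -3.71, -0.24 and 0.36 in the table, where the challenged columns were higher than any scanner array. Retnlb (-1.80, above background on 2 scanner arrays) and Gcnt3 (-0.73) also went against the goblet list, and the mean level of that list spread from -1.99 to 0.56 over the table columns.

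Dmbt1, a secreted scavenger protein of glands and mucosa, had the highest difference of all genes measured in all 8 columns: 5.04, 4.84, 5.01 and 5.94 on the scanner arrays against -7.00, -5.57, -5.84 and -4.58 in the table columns (10.96, 1990-fold). The antimicrobial proteins Ltf (5.84) and Bpifa1 (5.80) were the next among measured gland genes. Ltf held steady at 7.40 to 7.52 over the scanner arrays and spread from 0.80 to 2.33 in the table. Bpifa2, a salivary protein, went the other way (at least 5.78-fold lower on the scanner arrays).

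Genes of rare airway epithelial cells were counted as higher in part. Tuft cells are chemosensory cells, and 6 of 9 of their genes were counted as higher and none as lower (median 2.74, and 2.35 with background values at the floor). Their taste channel Trpm5 read -1.88, -1.57, -1.85 and -1.01 on the scanner arrays against -7.33, -7.35, -7.23 and -7.65 in the table columns, and their G protein Gnat3 was at background in all 4 table columns and at least 71.9-fold higher on the scanner arrays. Dclk1 (-1.30) and Gfi1b (-0.18) went against the list. Of 5 genes of ionocytes, which regulate airway fluid, Foxi1 (3.98), Ascl3 (4.02) and the chloride channel Cftr (2.35) were higher, while the proton pump subunit Atp6v0d2 was lower (-5.79). Of 11 neuroendocrine genes 3 were higher and none lower (median 1.67): the granule protein Chga differed by 5.73, Insm1 by 2.59 and Calca by 2.52, and Resp18 (-0.54) and Ddc (-0.51) lay below 0.

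**Figure D3:**
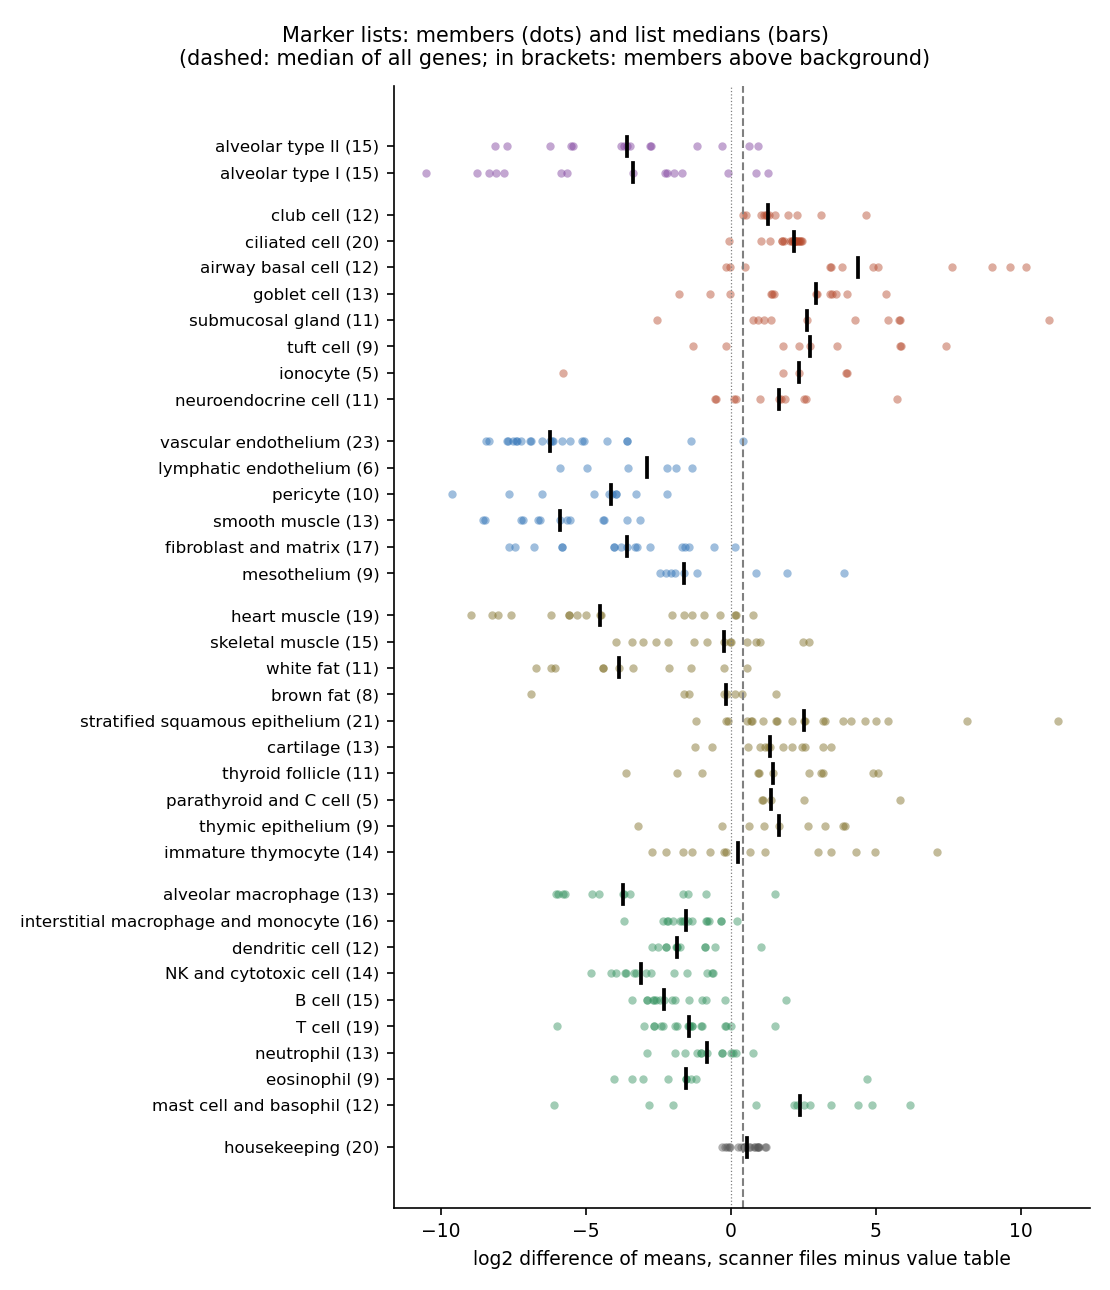
Log2 difference of means, scanner files minus value table (horizontal axis), for the members of 36 marker lists, 1 dot per gene above background in at least 1 of the 8 columns, with a bar at each list's median, a dashed line at the median of all genes (0.42) and list sizes in brackets. The vascular endothelium and smooth muscle medians lie at -6.23 and -5.90, the basal cell median at 4.37 and the housekeeping median at 0.57.

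Vascular endothelial genes had the lowest median of the 58 lists. Of 23 vascular endothelial genes 21 were counted as lower in the scanner files and none as higher, with a median of -6.23 and list levels of -3.97 to -3.31 over the scanner arrays and 2.27 to 2.46 over the table columns. Cdh5, the adhesion molecule of endothelial junctions, read -5.08, -6.13, -5.04 and -4.59 on the scanner arrays against 3.14, 3.25, 3.04 and 3.07 in the table columns (-8.34, 323-fold). Robo4 differed by -8.44, the junction protein Cldn5 by -7.71 and the capillary regulator Tmem100 by -7.67. Pecam1, found on platelets and leukocytes as well, differed by -3.58, and Vwf, made in larger vessels and platelets, by -4.26. The carbonic anhydrase Car4 (-1.38) did not pass the rule.

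The only member above 0, Kdr, again rested on the probe. Kdr encodes the main receptor for vascular endothelial growth factor. The brighter probe, printed above, read 1.52, 1.47, 1.16 and 1.36 on the scanner arrays against 1.08, 0.98, 1.00 and 0.81 in the table columns. The other, at position 5377, read -3.64, -3.90, -3.84 and -3.24 against 3.56, 3.67, 3.36 and 3.45, a difference of -7.16. The latter value lies within the range of the other endothelial genes, and the cause of the disagreement was not tested.

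The cells around vessels followed. All 10 pericyte genes were counted as lower (median -4.15), with Trpc6, a cation channel, and Rgs5 at background on all 4 scanner arrays and at least 211-fold and 14.95-fold lower. Pdgfrb, the growth factor receptor that defines pericytes, differed by -7.65. All 13 smooth muscle genes were lower (median -5.90): Cnn1 by -8.56, Actg2 by -8.49 and Acta2 by -7.15. Acta2, smooth muscle actin, read -3.21, -3.51, -3.44 and -2.76 on the scanner arrays against 3.66, 3.72, 4.10 and 4.20 in the table columns. Myocd, the factor that drives the muscle programme, and Lmod1 were at background on all 4 scanner arrays and at least 44.9-fold and 11.1-fold lower. Smtn (-3.12) was nearest to 0 in the list.

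Of 6 lymphatic genes 3 were lower and none higher (median -2.88, and -0.67 with the normexp correction of background), with Lyve1 at -5.90. Prox1 and Reln were at background on all scanner arrays, so the list depends on how background is treated.

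Connective tissue showed a mixed picture. Of 17 fibroblast and matrix genes 12 were lower and none higher (median -3.58). Mfap4 (-7.64), Inmt (-7.45) and the receptor Pdgfra (-6.79), which are high in alveolar fibroblasts, differed most among those measured in all 8 columns. The fibrillar collagens were less far apart: Col1a1 read -0.12, 0.15, -0.40 and -0.01 on the scanner arrays against 3.40, 3.16, 3.60 and 3.77 in the table columns, with Col1a2 at -3.31 and Col3a1 at -3.23. Pi16 (-0.60), a marker of fibroblasts of the adventitia, and Dcn (0.15), a proteoglycan of most connective tissue, did not pass the rule. Dcn was bright in both, at 4.22 to 4.69 on the scanner arrays against 4.28 to 4.34 in the table columns. Of 9 mesothelial genes 3 were lower and 1 higher (median -1.61). The higher gene was Msln (3.90), which airway epithelium can express, and Upk1b (1.94) and Bnc1 (0.87) also lay above 0.

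Heart muscle and white fat genes were mostly higher in the table, and brown fat genes were not. Of 19 heart genes 12 were lower in the scanner files and none higher (median -4.49). The median was -1.77 with normexp and -3.25 over the 16 genes above background in all 8 columns. Myh6, the atrial and adult heart myosin, read -3.40, -3.35, -3.77 and -3.48 on the scanner arrays against 3.58, 4.43, 4.07 and 4.19 in the table columns. Actc1 differed by -8.95 and Sln by -8.02, and Ttn was at background on all 4 scanner arrays and at least 92.5-fold lower. Nkx2-5 (0.77), Myh7 (0.18) and Nppb (0.15) lay above 0. Of 11 white fat genes 8 were lower and none higher (median -3.86), with Cfd at -6.70 and Adipoq at least 51.7-fold lower, and Lep was at background on all scanner arrays and in 3 of 4 columns. Skeletal muscle genes went both ways, with 4 of 15 lower and 2 higher (median -0.24, and 1.095 with normexp; -0.50 without the WT-labelled control and -0.05 without the KO-labelled challenged sample). Of 8 brown fat genes Cox8b (-6.90), which heart also makes, was the 1 counted as lower, and the median of -0.18 became -0.45 without the KO-labelled challenged sample, -0.09 without the KO-labelled control and -0.07 without the WT-labelled challenged one.

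Transcription factors that lay down regional identity separated along the same line. Of 16 lung and foregut factors 8 were lower in the scanner files and 4 higher (median -1.99). The mesenchymal factors were the lowest: Foxf1, which builds the lung's vessels and stroma, read -4.83, -5.19, -4.34 and -3.83 on the scanner arrays against 4.31, 4.32, 4.22 and 4.09 in the table columns (-8.78, 440-fold). Tbx4, a factor of lung mesenchyme, was above background on 3 scanner arrays and at least 743-fold lower, and Tcf21 (-7.97), Tbx5 (-7.00) and Tbx2 (-6.25) followed.

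Of the epithelial factors, Nkx2-1 and Foxa2 were lower by much less, and others were higher. Nkx2-1, the factor that specifies lung, airway and thyroid epithelium, read 0.78, 0.62, 0.66 and 0.41 on the scanner arrays against 1.01, 1.17, 1.01 and 1.03 in the table columns (-0.44), and Foxa2 differed by -0.64. Sox2, which marks the proximal airway, read 1.51, 1.58, 1.91 and 2.10 on the scanner arrays against -2.69, -2.27, -2.42 and -2.003 in the table columns (4.12, 17.4-fold). Foxa1 (2.78), Sox9 (2.57) and Foxp2 (2.23) were the other 3 higher factors. Sox9 is made in cartilage, glands and distal buds, and its table levels spread from -6.80 to -4.77.

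**Figure D4:**
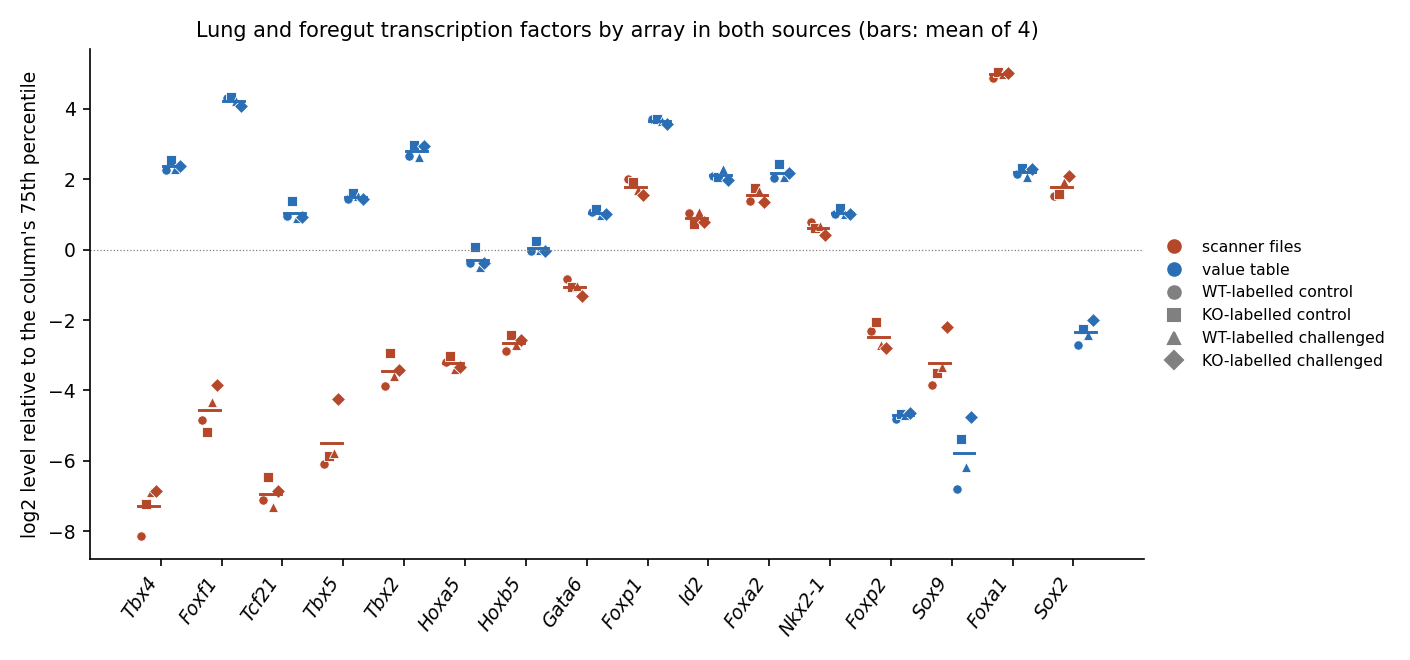
Log2 level relative to the 75th percentile of the array or column (vertical axis) of 16 lung and foregut transcription factors, ordered from the lowest to the highest difference, with scanner files in red, the value table in blue, a symbol per sample name and bars for the mean of 4. Tbx4 and Foxf1 stand far apart with the table on top, Nkx2-1 is slightly lower in all 4 scanner arrays, and Sox2 is higher in all 4 scanner arrays.

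Resident immune cells of the air sacs were lower in the scanner files, and mast cells were not. Alveolar macrophages live on the alveolar surface, and 9 of 13 of their genes were lower and none higher (median -3.72). Siglecf, their surface lectin, read -4.57, -4.62, -4.52 and -3.66 on the scanner arrays against 0.37, 0.33, 0.02 and 0.04 in the table columns. The ribonucleases Ear1 (-6.03), Ear10 (-5.94) and Ear2 (-5.79), which share much sequence and may share signal, were the lowest, and Plet1 (1.52), also an epithelial gene, lay above 0. Of 16 interstitial macrophage and monocyte genes 5 were lower and none higher (median -1.55, and -1.03 with normexp): the enzyme Ace, which capillaries also make, differed by -3.70, while C1qa (-0.81), C1qb (-0.34) and C1qc (-0.85) did not pass the rule and Ms4a7 (0.22) lay above 0.

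Of 14 NK and cytotoxic cell genes 9 were lower and none higher (median -3.10, and -1.66 with normexp), with the receptors Klre1 at least 28.0-fold lower, Ncr1 at -4.13 and Klrb1c at -3.97. B cell genes gave 9 lower of 15 (median -2.32), with Ebf1 at -3.40, and Vpreb3 (1.91) above 0. T cell genes gave 6 lower of 19 (median -1.44), plasma cell genes 4 of 10 (-1.30), dendritic cell genes 3 of 12 (-1.87) and neutrophil genes 1 of 13 (-0.83), and none of the 4 lists had a gene counted as higher. The neutrophil count is near the 7.47% of all genes counted as lower. Single samples decided some of these medians: the T cell median was -2.42 without the KO-labelled control and -0.80 without the WT-labelled challenged sample. The neutrophil median was -0.35 without the WT-labelled control, -0.38 without the KO-labelled control and -1.67 without the KO-labelled challenged sample. The plasma cell median was -0.76 over genes above background in all 8 columns, and the dendritic cell median -0.93 with normexp. Cd4 (1.52), the plasma cell gene Sdc1 (1.08), Siglech (1.02) and Elane (0.76) were the highest of these lists. The mean levels of the T cell, dendritic cell and neutrophil lists overlapped between the sources. S100a8, a neutrophil protein, spread from 0.22 to 3.97 over the scanner arrays, highest in the KO-labelled challenged one, and only from 2.52 to 3.18 over the table.

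Mast cell proteases were higher in the scanner files. Of 12 mast cell and basophil genes 8 were higher and 2 lower (median 2.40). Tpsab1, a tryptase, read -1.24, -1.31, -1.01 and -1.25 on the scanner arrays against -7.43, -7.87, -7.14 and -7.10 in the table columns (6.18, 72.5-fold). Tph1, which makes serotonin, differed by 4.86, the carboxypeptidase Cpa3 by 3.46 and Tpsb2 by 2.73. Gata2 (-6.08) and Kit (-2.82), both expressed outside mast cells too, were lower. The basophil protease Mcpt8, above background on 3 scanner arrays, differed by -1.999 and did not pass the rule.

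Of 9 eosinophil genes 4 were lower and 1 higher (median -1.56, and -0.68 with normexp); Prg2 was at least 16.2-fold lower on the scanner arrays, and Alox15, which epithelium also makes, was higher (4.68). Of 10 red cell genes 1 was higher and none lower (median 0.71, and 0.19 after quantile normalization), near the 8.06% of all genes counted as higher. Hba-a1 stood at 6.64 to 7.32 on the scanner arrays against 5.90 to 6.28 in the table columns, close to what the brightest spike-ins showed.

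Genes of tissues that lie beside the upper airway were detected in the scanner files, unevenly over the arrays. Tg, the thyroid hormone precursor, read 1.07, 0.75, -0.96 and 0.30 on the scanner arrays against -4.44, -5.19, -4.37 and -4.49 in the table columns (4.91, 30.1-fold). Of 11 thyroid genes 5 were higher and 1, Hhex (-3.62), lower; Hhex is also an endothelial gene. Tshr and Iyd (-1.003) went against the list as well, Tshr being at background on all scanner arrays. The list's median of 1.44 compares with 1.04 for all genes at its members' levels. It was 0.69 after quantile normalization, 3.36 with normexp and 3.10 over the 5 genes above background in all 8 columns. Lists of organs away from the chest had medians of 0.93 to 1.67, so a median of this size does not set the thyroid list apart.

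Pth, parathyroid hormone, was uneven over the arrays. It read -0.18, -2.29, -5.30 and -3.75 in the scanner files and was at background in 3 columns, with -7.08 in the KO-labelled challenged one (at least 35.5-fold higher on the scanner arrays). The other parathyroid and C cell genes besides Calca, namely Gcm2 (1.37), Casr (1.11) and Calcb (1.08), did not pass the rule. Of 13 cartilage genes 3 were higher (Chad, Col2a1 and Ucma) and none lower (median 1.34, against 1.04 for all genes at their levels, and 3.13 with normexp). Chad, a cartilage matrix protein, was bright and even (3.01, 2.96, 2.72 and 2.73 against -0.95, -0.93, -0.14 and -0.31), whereas Col2a1, the defining collagen of cartilage, read -6.97, -3.56, -6.40 and -6.91 and was at background in 3 of 4 columns. Matn1 was above background on 1 scanner array and in no column. Comp (-0.65) and Hapln1 (-1.24) went against the list.

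Genes of immature thymocytes were high on 1 array. Rag1, which cuts antigen receptor genes in immature lymphocytes, read -4.37, 1.43, -4.95 and -2.51 in the scanner files and was at background in all 4 columns. Dntt, which adds bases at those cuts, read -1.87, 3.72, -1.72 and -0.45 against -4.03, -4.63, -4.58 and -4.37. In both the KO-labelled control array stood far above the others, and the mean level of the 14 immature thymocyte genes was 0.25 there and -4.13 to -3.19 on the other 3 arrays, against -4.003 to -3.50 in the table. Of the list 5 were higher and 1, Cd1d1 (-2.72), lower, and its median of 0.25 became -0.61 without the KO-labelled control in both sources, 0.47 without the WT-labelled control and 0.72 without the WT-labelled challenged sample. Lef1 (-2.22), Endou (-1.64), Tcf7 (-1.33), Bcl11b (-0.71), Satb1 (-0.24) and Themis (-0.16) also lay below 0.

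Among the scanner arrays the mean level of the T cell list was also highest on that one (-1.44, the others -3.65 to -2.84). Cd8a read -4.06, 0.22, -4.90 and -3.51 on the scanner arrays against -2.73, -3.22, -2.88 and -3.39 in the table columns. Whether mature T cells or thymocytes gave these levels was not tested. Of 9 thymic epithelial genes 3 were higher and 1, Dll4 (-3.20), lower, with a median of 1.65 against 1.04 at their levels, 2.77 with normexp and 0.89 over the 6 genes above background in all 8 columns. Psmb11, a proteasome subunit of cortical thymic epithelium, was above background on 3 scanner arrays and in no column and at least 4.40-fold higher. Foxn1, the master regulator of that epithelium, was also above background on 3 arrays and in no column, and Ly75 (-0.30) lay below 0.

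**Figure D5:**
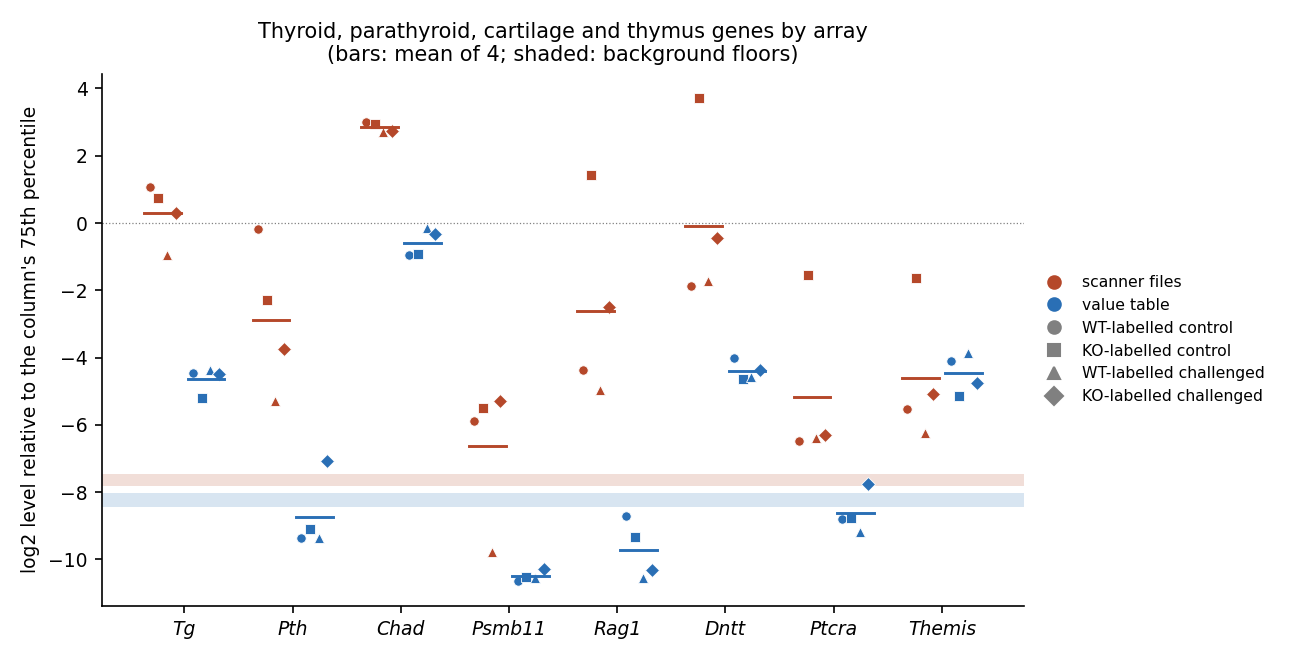
Log2 level relative to the 75th percentile of the array or column (vertical axis) of thyroid (Tg), parathyroid (Pth), cartilage (Chad), thymic epithelial (Psmb11) and immature thymocyte genes, with scanner files in red, the value table in blue, a symbol per sample name, bars for the mean of 4 and shading for the background floors. Chad is even over the scanner arrays, Pth spreads from -5.30 to -0.18, and Rag1 and Dntt are highest on the KO-labelled control array.

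Genes outside the marker lists pointed to further differences between the sources. By the size of the difference among genes measured in all 8 columns, the lowest without a list included Septin4 (-8.99), Scube2 (-8.39), Sema3g (-8.33), Mlc1 (-8.28), the factor Tbx3 (-8.24) and Tmem204 (-8.22). Sema3g, a semaphorin, and Tmem204 are known from endothelium. The highest were Upk3bl (9.56), the factor Six2 (9.49), the serpin Serpinb5 (9.39), the steroid enzyme Akr1c18 (8.88), Olfr1247 (7.87), the fatty acid hydroxylases Cyp4a12a (7.79) and Cyp4a12b (7.48), Cyp2b13 (7.79), the monocarboxylate transporter Slc5a8 (7.60) and the sulfotransferase Sult1c2 (7.20). Cyp4a12a and Cyp4a12b are near-identical copies whose probes may share signal. Serpinb5, which epithelial cells of layered and glandular tissue make, stood with Krt5, Krt15 and Krt17 among the 15 highest.

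Some genes were detected in a single source. There were 473 genes above background on all 4 scanner arrays and in no column, and 523 the other way round. Among the former, large bounds included those of the glucuronosyltransferase Ugt2b34 (at least 1124-fold higher), Pkp1, the sulfotransferase Sult1b1 (at least 557-fold) and the antimicrobial peptide Defb1 (at least 364-fold). Among the latter were Fam162b (at least 417-fold lower on the scanner arrays), the amino acid transporter Slc7a10 (416-fold), the lectin receptor Clec1a (332-fold), Adgrl4, an adhesion receptor of endothelium (313-fold), and Lrat, which stores vitamin A (286-fold).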

How the data were processed

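RNA labelled with Cy3 was measured on 4 Agilent 1-colour arrays of 44397 spots. The spot intensity in the scanner files was processed, per the file headers, by version 11.5.1.1 of Agilent's Feature Extraction, which removed spatial trends but normalized nothing between arrays. Probe coordinates there are on mm9. The deposited value table holds a linear signal per spot, control spots included. Its 75th percentile is near 1 in each column, and its making by the authors is not described in the sources used here. Table spots were matched to scanner spots by feature number.

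From the log2 scanner intensity of each spot, its array's 75th percentile over non-control spots was subtracted. Table signals were only converted to log2. Repeated spots were averaged, and 19 probes marked uneven were left out of 39429. No spot was saturated. Probes were named by accession (28758), symbol (2029) or synonym (162) in a RefSeq gene table of GRCm38.p6, used for names only, and 8480 kept the file's name. A gene was represented by its brightest probe over the 8 columns. A scanner probe was above background by Agilent's flag, a table probe at over 5 times its column's median negative control; on the scanner files both rules gave the same answer for 99.2% of spots. A fold against a source at background is a bound, taken from the floor of each column and written as at least that fold. The number of arrays limits the precision.

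Genes were counted at 4-fold with ranges apart. The sources were normalized separately and were not tested against each other. There were 58 lists, 1 of them the 5 marker genes, with 707 genes, of which 701 were on the array and 676 above background in at least 1 column; the members and lists were chosen with earlier results of these data known. Named are the 5 markers, Pla2g3, the 15 highest and 15 lowest differences, up to 5 genes per source detected there alone, and from each list its first member, its extremes and members that go against its median; others named were chosen after their values were seen. A few genes that this rule names are not reported here. Alternatives were quantile normalization, centring on shared probes, normexp (offset 50, limma 3.58.1 in R 4.3.3), the mean of probes, other filters and folds, and leaving out each sample. Other computations used Python 3.11.15, pandas 2.3.3 and numpy 2.4.6.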

Additional observations from a re-analysis of the deposited data

Results flagged for a closer look

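List levels were checked for an array that stood apart from the other 3 of its source, and 5 of 114 such checks met the limit of Dixon's test. For replicates of 1 group, chance alone meets that limit in about 1 in 20 checks, and 5 of 114 is not above that rate. The arrays come from 4 different groups and the checks share arrays, so the number cannot show whether chance gave it. The KO-labelled control array had the lowest vascular endothelial level in the scanner files (-3.97, the others -3.40 to -3.31). The WT-labelled challenged column had the highest lymphatic endothelial level in the table (-3.17, the others -3.38 to -3.35). The WT-labelled control array had the highest B cell level in the scanner files (-1.45, the others -2.63 to -2.57). The KO-labelled challenged array had the highest alveolar macrophage level in the scanner files (-0.69, the others -1.47 to -1.40). The WT-labelled challenged array had the lowest level of testis genes in the scanner files (-5.23, the others -4.91 to -4.88).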

How the results depend on the processing

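Over 58 lists the sign of the median held under every alternative for 52, among them the alveolar, ciliated, basal, endothelial, smooth muscle, fibroblast and heart lists. The sex-linked list, with 2 members, was -3.91 and became 0.24 with no filter, which adds 3 genes at background; the Schwann (-0.02) and housekeeping lists turned sign after quantile normalization, the skeletal muscle (1.095) and brown fat (0.04) lists with normexp, and the immature thymocyte list among genes above background in all 8 columns (-0.48) and without the KO-labelled control (-0.61; leaving out each sample in turn gave -0.61 to 0.72). Genes counted as lower and higher numbered 2054 and 2218, and 3655 and 7015 at 2-fold, 1131 and 659 at 8-fold, and 1319 and 7900 with normexp, and 1981 to 2150 and 2173 to 2402 without each sample in turn. Quantile normalization of all 8 columns moved the list medians to -3.94 (alveolar type II), -3.72 (alveolar type I), 2.18 (squamous), -6.56 (vascular endothelium), -6.21 (smooth muscle), -3.79 (fibroblast), -5.03 (heart) and -0.0012 (housekeeping). Normexp moved them to 4.18 (squamous), -5.50 (vascular endothelium), -4.21 (smooth muscle), -3.10 (fibroblast), 3.13 (cartilage) and -1.77 (heart). The mean of a gene's probes gave 4.75 (basal), 2.26 (squamous) and 0.48 (housekeeping). Only genes above background in all 8 columns gave -2.24 (alveolar type I), 1.56 (squamous), -3.31 (fibroblast) and -3.25 (heart), and no filter gave 2.32 (squamous). Housekeeping genes came to 0.67 after centring on shared probes and 0.68 after scaling to 6 spike-ins, an alternative chosen after seeing the data. The median of all genes was 0.42 and moved to 0.18 after quantile normalization, 0.53 after centring, 0.54 with spike-ins and 0.78 with normexp. Normexp, with its offset of 50, was applied to the scanner files alone, which raises dim scanner levels against an unchanged table. The cause of the other shifts was not tested. No paired test was run, because sources normalized separately were not tested against each other. Taking differences within each of the 4 sample names leaves a difference of means as it is.

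Each source has 1 array per group, so the spread over its 4 arrays is not a replicate error. Negative controls read higher in the scanner files and so did the brightest spike-ins, which limits what differences of very dim and very bright genes can show. Probes of a gene can disagree, as for Trp63 and Kdr.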

Other observations

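Counts for genes that mark cell state are to be read beside the shares of all genes, 7.47% counted as lower and 8.06% as higher. None of 20 cell cycle genes and none of 20 housekeeping genes passed the 4-fold rule in either direction, with medians of 0.72 and 0.57. The cell cycle median was 0.24 without the KO-labelled control, whose scanner array had the highest level of that list (-0.18). The housekeeping median was -0.0012 after quantile normalization. Heat shock genes had a median of 1.098 (0.50 after quantile normalization) and none of 6 passed the rule. Among 12 interferon response genes 3 were higher in the scanner files and none lower (median 1.70): Ifi44 differed by 2.55, Irf7 by 2.17 and Mx1 by 2.01. Among 17 immediate early genes Fosb was higher (2.48) and Egr2 lower (-2.25), and the median was -0.19 (-0.39 without the KO-labelled control and -0.37 without the KO-labelled challenged sample). Of 14 circadian genes Ciart (-2.61) was lower, and the median was 0.75 (0.39 without the KO-labelled control). The immediate early and circadian counts are near the shares of all genes. Dbp, a clock output, read 4.23, 4.59, 2.81 and 2.79 on the scanner arrays against 0.43, 0.06, 2.87 and 1.51 in the table columns, in the order WT-labelled control, KO-labelled control, WT-labelled challenged and KO-labelled challenged.

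Markers of organs away from the chest were dim in both sources, with list medians between 0.93 and 1.67; several of these differ by more than 1.5 times with normexp or quantile normalization, and the testis median of 1.27 was 0.84 without the KO-labelled control. Counted as higher were 4 of 10 kidney, 3 of 9 intestine, 3 of 8 olfactory and 2 of 8 brain genes. So were 1 each of 10 liver, 6 stomach and 7 pancreas genes, and none of 7 salivary gland or 7 testis genes. These counts and medians are like those of the thyroid, cartilage and thymic epithelial lists, so they do not by themselves show a tissue. Single members stood out: the intestinal antigen Gpa33 (4.93) and the water channel Aqp4 (5.38), from the brain list, were higher in the scanner files, and Lrp2 (-6.09) and Cdh16 (-4.94), from the kidney list, and Cyp2e1 (-4.23), from the liver list, were lower. Each is also known from epithelium or other cells outside the organ of its list. Of 14 nerve genes Prx (-5.90) and Stmn2 (-5.51) were lower and Nefl was at least 16.0-fold higher; the median of 0.26 was 0.70 without the KO-labelled control. Platelet genes gave 4 lower of 10.

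Pla2g3 read -3.05, 0.14, -2.83 and 1.07 on the scanner arrays against -4.66, -0.20, -4.60 and 0.06 in the table columns, higher on the KO-labelled arrays in both sources. Xist was above background in all 8 columns (-1.43 ± 0.37 and -0.60 ± 0.19, SD, n = 4), and probes of the Y-linked genes Ddx3y, Kdm5d and Uty were at background in all 8. The probe of Eif2s3y, another Y-linked gene, was at background on all 4 scanner arrays and read -2.70, -2.38, -2.78 and -2.64 in the table. Klra8, an NK receptor that some inbred strains lack, read -5.10 ± 0.59 on the scanner arrays against -0.02 ± 0.28 in the table columns. The cause of these values was not tested.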
